A study of Drosophila melanogaster with 11 samples.

Results

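Noncoding RNA genes that were transcribed in Kc167 cells, a line derived from the *Drosophila melanogaster* embryo, were followed across knockdowns of 3 chromatin proteins. The genes were those whose FlyBase symbol starts with lncRNA: (long noncoding RNA) or asRNA: (antisense RNA), without *roX1* and *roX2*, and they were selected on their mock level, a mean of at least 5 CPM (a gene's count scaled to the size of its library) over the mock libraries. There were 117 such genes of 2386 lncRNA: and asRNA: genes and of 17771 genes in the count table. Of the 117, 83 carry the lncRNA: prefix and 34 the asRNA: prefix. The remaining 2269 lncRNA: and asRNA: genes were below 5 CPM. The prefix lncRNA: is left off below, and asRNA: is kept.

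Cells were transfected with double-stranded RNA against *M1BP* (20 µg), *Cp190* (12 µg) or 1 isoform of *mod(mdg4)* (5 µg), or with none (mock), and new RNA was labeled 5 days later for 1 h with 0.2 mM 5-ethynyl uridine, captured and sequenced (neuRNA-seq). The analysis used 4 mock libraries (replicates 1 to 4), 2 of *mod(mdg4)* knockdown (1 and 2), 2 of *M1BP* knockdown (2 and 3) and 1 labelled *Cp190* knockdown. All groups share the cell line, the electroporation and the labeling, and mock cells received no control double-stranded RNA. The study calls its RNA-seq replicates biological, without saying for these libraries whether each was a separate transfection, and p-values measure the spread between these libraries.

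M1BP is a zinc-finger protein that binds the core promoter element Motif 1, and CP190 and Mod(mdg4) are proteins of chromatin insulator complexes. Long noncoding RNAs are made by RNA polymerase II like messenger RNAs but encode no known protein. Some are the primary transcripts from which microRNAs (miRNAs) are cut, some act in the nucleus, some run antisense to or inside introns of coding genes, and for most a role is not known.

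Total counts ranged from 7462623 to 29680851 per library, and the 117 genes took 0.729% to 1.71% of them. *M1BP* itself was at 44.2 to 54.5 CPM in mock and at 21.5 and 31.8 CPM in the *M1BP* knockdown libraries, a log2 fold change of -0.86 ± 0.20 (SE; edgeR adjusted p = 0.0145). *Cp190* was at 339 to 460 CPM in mock and at 4374 CPM in the library labelled *Cp190* knockdown, against its label, and its values are given under that label without a claim that CP190 was depleted. The *mod(mdg4)* target was not checked here. Of 10 hemocyte markers, 7 reached 5 CPM in mock, with the defining *srp*, *ush*, *Pxn* and *Hml* among them and *He*, *NimC1* and *eater* below 1 CPM. The summed hemocyte markers were at 5376 to 7422 CPM in mock, 4893 and 5237 CPM after *M1BP* knockdown and 4083 and 5920 CPM after *mod(mdg4)* knockdown. Their members did not move together: *srp*, which carries most of the sum, was at 3458 to 5649 CPM in mock and at 2936 and 2307 CPM after *M1BP* knockdown, whereas *Pxn* was at 217 to 297 CPM and then at 602 and 932 CPM, and *Hml* at 264 to 277 CPM and then at 515 and 373 CPM. Summed muscle markers were at 3.47 to 4.48 CPM in mock and 7.33 and 12.9 CPM after *M1BP* knockdown. Summed lamellocyte and crystal cell markers were at 4.40 to 4.87 CPM and then at 5.65 and 10.5 CPM. No gene of either list reached 5 CPM in mock, and their members did not move together either. *Mhc* was at 2.52 to 3.48 CPM and then at 11.4 and 5.38 CPM. *Mlc2* was at 0.359 to 0.968 CPM and then at 0.573 and 0.0928 CPM. *lz* was at 0.559 to 1.24 CPM and then at 2.29 and 8.53 CPM. *PPO3* was at 3.18 to 3.91 CPM and then at 1.72 and 1.48 CPM. Summed neuron markers overlapped between mock (411 to 523 CPM) and *M1BP* knockdown (437 and 515 CPM). Within this sum *elav* was at 76.3 to 128 CPM in mock and at 143 and 177 CPM after *M1BP* knockdown. *brp* was at 332 to 396 CPM and then at 291 and 334 CPM. The part of these shifts in the results was not tested.

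CPM values below were scaled with edgeR's TMM factors over the 9 libraries. The mock libraries fell into 2 pairs: in 57 of the 117 genes replicates 3 and 4 both lay above replicates 1 and 2, and in 27 the reverse. In 26 genes the pairs lay apart with means that differed at least 1.5 times. The shares over all genes were not counted for these. Over 10868 genes, Pearson's r of log2 CPM was 0.992 between replicates 1 and 2 and 0.990 between 3 and 4. Across the pairs it was 0.985 to 0.988, so the pairing was not particular to the noncoding genes. The median coefficient of variation over the mock libraries was 15.2%.

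The level of these genes was spread very unevenly. *CR40469*, *Hsromega* and *CR42862* together made 57.3% to 73.7% of the counts of all 117 genes in each library, while 87 of the 117 were below 20 CPM. Per kilobase of gene length, the highest mean mock levels were those of *CR40469* (11183 CPM per kb), *CR43264* (772 CPM per kb), *CR42862* (215 CPM per kb), *CR44138* (184 CPM per kb) and *CR45517* (119 CPM per kb), against a median of 8.10 CPM per kb. Gene lengths ran from 214 bp to 239347 bp, with a median of 1583 bp. *CR40469*, at chrX:122493-122706 (dm6, plus strand), is the shortest. Its mock levels were 1022, 1314, 4065 and 3172 CPM, so its neighbours in the order cannot be ranked against it beyond this spread in CPM, although per kb it stood first in each mock library. At the edge of the rule, and in CPM of the column total that the rule used, *asRNA:CR44382* (5.21 CPM) and *CR43803* (5.27 CPM) were just inside and *CR43863* (4.89 CPM) and *CR45732* (4.79 CPM) just outside.

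After *M1BP* knockdown, 26 of the 117 genes rose and 17 fell (edgeR quasi-likelihood test, adjusted p below 0.05 over all genes tested). Over all 9511 genes tested, 16.5% rose and 11.5% fell. Over the 6525 genes with at least 5 CPM in mock, which are the closer background, 8.69% rose and 14.9% fell. That background shares the 5 CPM limit but was not matched for level above it. The median mock level of the 117 genes was 12.3 CPM, and the part of level in any difference was not tested. The noncoding genes rose in 22.2% and fell in 14.5%. Their median log2 fold change was -0.03, the same to 2 decimals as that of all genes tested and against -0.15 for those with at least 5 CPM in mock. The genes that rose had log2 fold changes of 0.57 to 3.41, with 20 of the 26 at least doubled in level, and those that fell had -0.66 to -1.62, with 10 of the 17 at least halved. Both knockdown libraries lay above the mock range in 32 of the 117 genes and below it in 28, the 43 called among them, while over all genes with at least 5 CPM in mock both lay above it in 13.2% and below it in 32.8%. The rule used the mock level, so falls in this comparison are not independent of the choice. Without mock replicate 4, the number that fell was 6, and the number that rose was 21. Over all genes tested 582 then fell and 1085 rose, against 1097 and 1574 with all mock libraries.

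**Figure D1:**
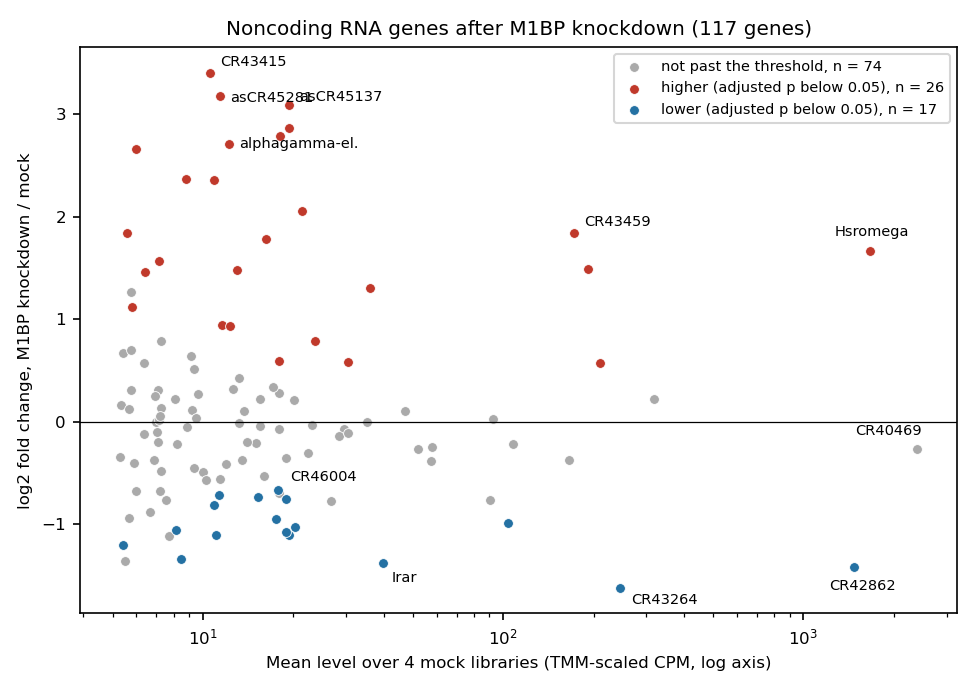
Log2 fold change after *M1BP* knockdown (2 libraries) against mock (4 libraries) for the 117 noncoding RNA genes, plotted against the mean mock level in TMM-scaled CPM on a log axis; "as" stands for asRNA:. The 26 genes that rose reach 3.41 and include the abundant *Hsromega*, and the 17 that fell reach -1.62 and include the abundant *CR42862*.

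The largest rises were in genes of low mock level and unknown role. *CR43415* (chr2R:16078195-16078819, minus strand) was at 10.3, 10.3, 11.1 and 10.6 CPM in mock and at 55.8 and 164 CPM after *M1BP* knockdown. Its groups did not overlap, and its log2 fold change was 3.41 ± 0.33 (SE, adjusted p = 0.000282). *asRNA:CR45281* (chr2R:9559255-9565190, minus strand), which overlaps *Alp6* on the other strand over 37.6% of its length, was at 12.0, 12.9, 9.50 and 11.0 CPM in mock and at 77.2 and 124 CPM after knockdown. This was a log2 fold change of 3.18 ± 0.21 (adjusted p = 5.26e-05), while *Alp6* did not pass the test.

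*asRNA:CR45137* (chr2R:12783611-12799259, minus strand) lies wholly opposite *sca*, which encodes a secreted protein of sense-organ and eye patterning. It was at 17.8, 19.8, 20.2 and 19.6 CPM in mock and at 114 and 211 CPM after *M1BP* knockdown, and rose by 3.10 ± 0.22 (log2, adjusted p = 6.93e-05). *sca* rose with it, from a mean of 2.33 to 7.60 CPM (log2 fold change 1.73, adjusted p = 0.00722). The strand-specific counts of both genes of this antisense pair were thus higher. *sca* was at 4.99 and 10.2 CPM in the 2 knockdown libraries, far below *asRNA:CR45137*. The part of reads assigned to the wrong strand in its rise was not tested.

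*CR44949* (chr3R:25823706-25825211, minus strand) was at 21.5, 24.8, 13.3 and 18.0 CPM in mock and at 66.1 and 211 CPM after knockdown, a log2 fold change of 2.87 ± 0.39 (adjusted p = 0.00146). *CR44453* (chr2R:12839233-12839850, minus strand) was at 15.6, 18.0, 19.0 and 19.6 CPM in mock and at 90.4 and 154 CPM after knockdown, a log2 fold change of 2.79 ± 0.21 (adjusted p = 8.46e-05). In each of these 5 genes the lower knockdown library was above the highest mock library, and replicate 3 was the higher of the knockdown pair. Replicate 3 was the higher in 22 of the 26 genes that rose, and in 72 of all 117.

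Several noncoding genes with an established name also rose. *Hsromega* encodes a nuclear RNA that is strongly induced by heat and other stress and organizes the omega speckles. It was at 1767, 1536, 1607 and 1735 CPM in mock and at 3779 and 6567 CPM after *M1BP* knockdown, which is a log2 fold change of 1.67 ± 0.21 (adjusted p = 0.000907). The *alphagamma-element:CR32865* lies in the heat shock locus that holds *Hsp70* copies and is itself heat-inducible. It was at 12.2, 8.95, 14.9 and 12.7 CPM in mock and at 63.6 and 93.1 CPM after knockdown, a log2 fold change of 2.71 ± 0.23 (adjusted p = 0.000133). Near-identical copies of this element exist in the genome, so its count is uncertain.

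*flam* is the flamenco locus, the source of PIWI-interacting RNAs that silence *gypsy* and related retrotransposons in the ovarian soma. It was at 6.62, 5.53, 8.29 and 8.03 CPM in mock and at 29.5 and 11.9 CPM after *M1BP* knockdown, which is a log2 fold change of 1.57 ± 0.33 (adjusted p = 0.00952). The locus is 158841 bp long and repetitive, and reads that map to several places were not counted. Without *M1BP* knockdown replicate 2 its log2 fold change was 0.74 (adjusted p = 0.0745), where the lone knockdown library is assumed to vary like mock. *mimi* was at 87.8 to 139 CPM in mock and at 105 and 76.2 CPM after *M1BP* knockdown, *dntRL* at 6.67 to 7.63 CPM and at 7.53 and 4.64 CPM, and *TS4* at 5.50 to 8.42 CPM and at 1.64 and 8.63 CPM, and none of these 3 passed the test.

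The genes that fell included highly transcribed ones. *CR43264* (chrX:5831898-5832215, minus strand) is 318 bp long and lies in an intron of *CG15765* on the other strand. It was at 151, 155, 389 and 288 CPM in mock and at 78.2 and 78.7 CPM after *M1BP* knockdown. It fell by 1.62 ± 0.39 on the log2 scale (adjusted p = 0.0154), and without *M1BP* knockdown replicate 2 or 3 the adjusted p was 0.0662 or 0.0651. *CR42862* (chr3L:224106-230964, plus strand) was at 1242, 1358, 1755 and 1546 CPM in mock and at 597 and 488 CPM after knockdown, and fell by 1.42 ± 0.19 (adjusted p = 0.00126). *CG33229* lies over 21.9% of its length on the same strand, and reads in the shared stretch were counted for neither gene.

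*Irar*, the insulin receptor antisense RNA, lies within an intron of *InR*, which encodes the insulin receptor, at chr3R:21592350-21594852 on the plus strand. It was at 34.2, 33.0, 44.4 and 47.8 CPM in mock and at 18.3 and 11.7 CPM after *M1BP* knockdown, and fell by 1.38 ± 0.25 on the log2 scale (adjusted p = 0.00541). *InR* was at a mean of 1556 CPM in mock and 1585 CPM after knockdown and did not pass the test (adjusted p = 0.846). *CR44904* (mock 7.26 to 10.0 CPM, knockdown 2.05 and 4.55 CPM) fell by 1.34 ± 0.35 (adjusted p = 0.0211). *asRNA:CR44053* (mock 4.04 to 7.65 CPM, knockdown 2.13 and 2.50 CPM) fell by 1.20 ± 0.36 (adjusted p = 0.0369). The call for *CR44904* was lost without mock replicate 4 (adjusted p = 0.0516). That for *asRNA:CR44053* was lost without mock replicate 1 (0.0938), 2 (0.0745) or 4 (0.0672) and without *M1BP* knockdown replicate 2 (0.0964) or 3 (0.0589), all adjusted p-values.

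**Figure D2:**
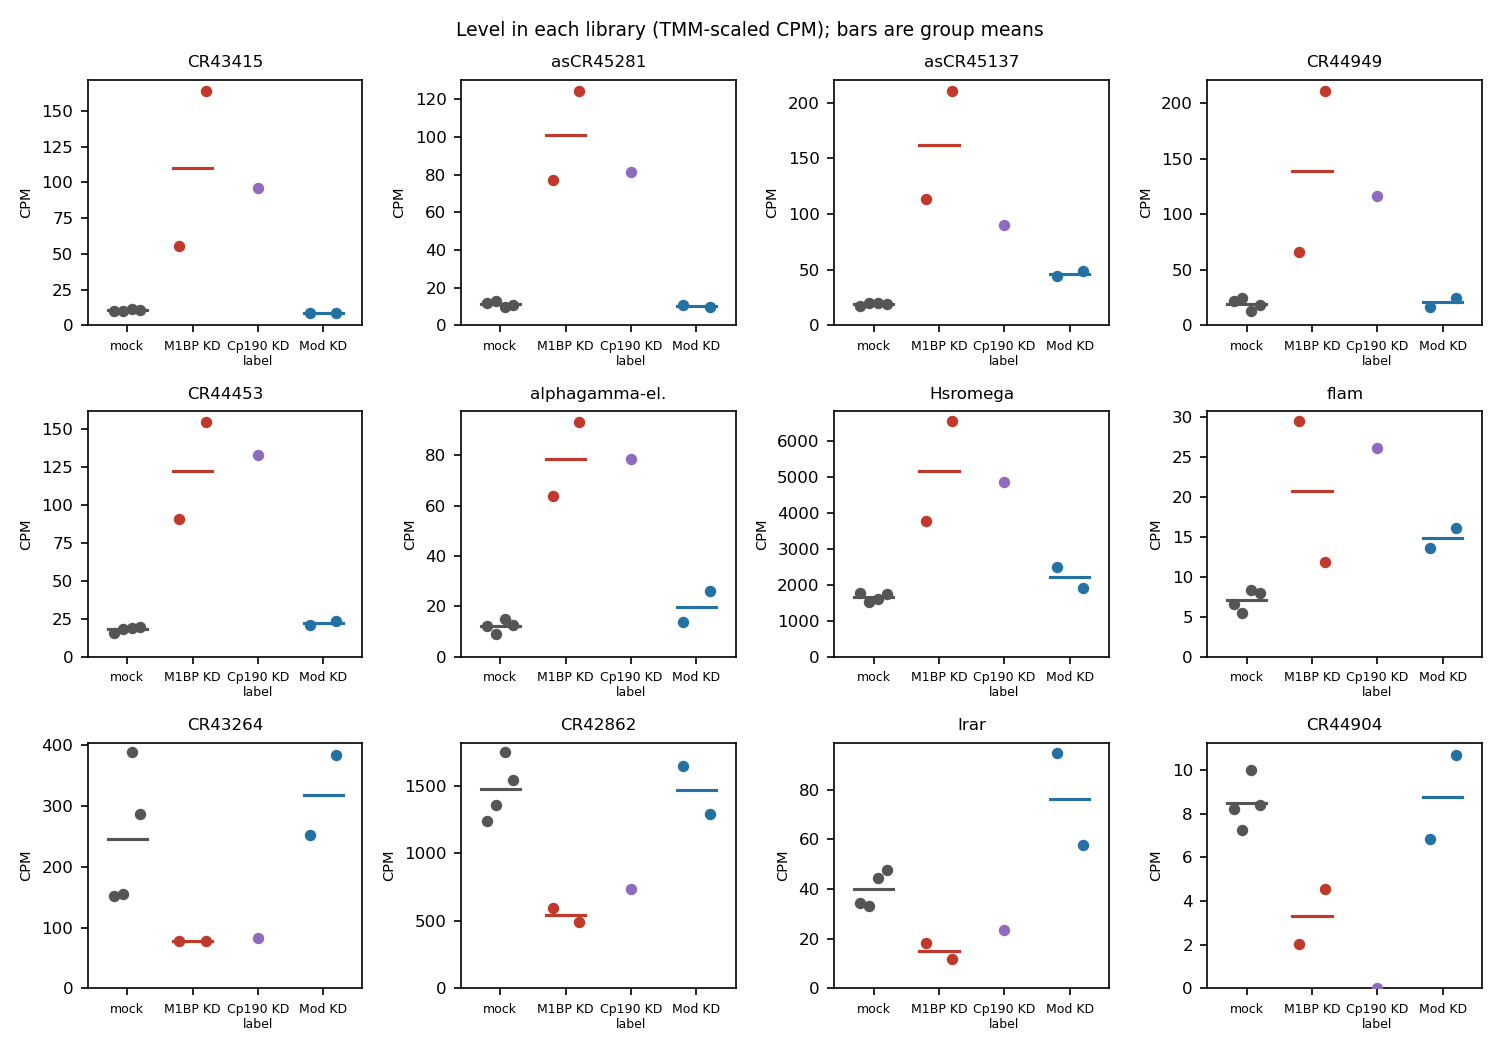
Level in each library in TMM-scaled CPM (linear axes from 0) for 12 noncoding RNA genes; each point is a library and each bar the mean of a group. In the first 8 panels both *M1BP* knockdown libraries are above the 4 mock libraries, as for *CR43415* at 55.8 and 164 CPM, and in the last 4 both are below.

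Of the 117 genes, 7 hold a miRNA gene on their own strand. After *M1BP* knockdown 4 of the 7 rose and 1 fell, and after *mod(mdg4)* knockdown 2 rose. Over all genes with at least 5 CPM in mock these shares were 8.69%, 14.9% and 0.414%, and a difference of so few hosts from them was not tested. *CR43459* (chr3R:10093761-10101356, plus strand) holds *mir-277* and *mir-34*. It was at 171, 182, 148 and 187 CPM in mock and at 378 and 834 CPM after *M1BP* knockdown, which is a log2 fold change of 1.85 ± 0.26 (adjusted p = 0.00163). *CR45054* (chr3R:10083381-10090525, plus strand) ends upstream of it on the same strand, with *mir-317* between them. It was at 191, 185, 188 and 205 CPM in mock and at 385 and 675 CPM after knockdown, a log2 fold change of 1.49 ± 0.20 (adjusted p = 0.00126). Both annotated genes of this miRNA cluster were thus higher. Parts of 1 transcript and separate transcripts cannot be told apart in these counts.

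*CR43857* (chr2L:7423820-7425932, plus strand) holds *mir-275*. It was at 20.4, 22.1, 20.4 and 23.0 CPM in mock and at 63.4 and 112 CPM after *M1BP* knockdown, which is a log2 fold change of 2.06 ± 0.21 (adjusted p = 0.000363). *CR43651*, which holds *mir-14*, a miRNA known for roles in cell survival and fat metabolism, was at 16.0 to 19.5 CPM in mock and at 21.9 and 31.1 CPM after knockdown, a log2 fold change of 0.59 ± 0.19 (adjusted p = 0.0485). Leaving out any mock library or *M1BP* knockdown replicate 3 took *CR43651* over the threshold, with adjusted p-values between 0.0585 and 0.260. *Hsromega*, above, holds *mir-4951*. *CR31044*, which holds *mir-279* and *mir-996*, was at 13.1 to 22.6 CPM in mock and at 20.5 and 22.3 CPM after *M1BP* knockdown, within the mock range.

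*CR46004* (chr3L:10306678-10320600, plus strand) holds *mir-276b* and moved in opposite directions in the knockdowns. It was at 18.2, 17.3, 17.6 and 17.9 CPM in mock, at 12.7 and 9.28 CPM after *M1BP* knockdown and at 51.4 and 43.7 CPM after *mod(mdg4)* knockdown. No library of one group overlapped another group. It fell by 0.66 ± 0.20 on the log2 scale after *M1BP* knockdown (adjusted p = 0.0347) and rose by 1.45 ± 0.14 after *mod(mdg4)* knockdown (adjusted p = 0.0137), both against the same mock libraries. The fall after *M1BP* knockdown was lost without any mock library or without *M1BP* knockdown replicate 3 (adjusted p between 0.0574 and 0.0903). The difference between the knockdowns, which uses no mock library, is given below.

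*CR44206* (chr2R:13329352-13344808, minus strand) holds *mir-184* and had the tightest mock values of the abundant host genes, at 326, 322, 311 and 316 CPM. It was at 269 and 461 CPM after *M1BP* knockdown, on both sides of the mock range, and at 548 and 498 CPM after *mod(mdg4)* knockdown, above it. Counts on host genes measure the primary transcript and not the mature miRNA.

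**Figure D3:**
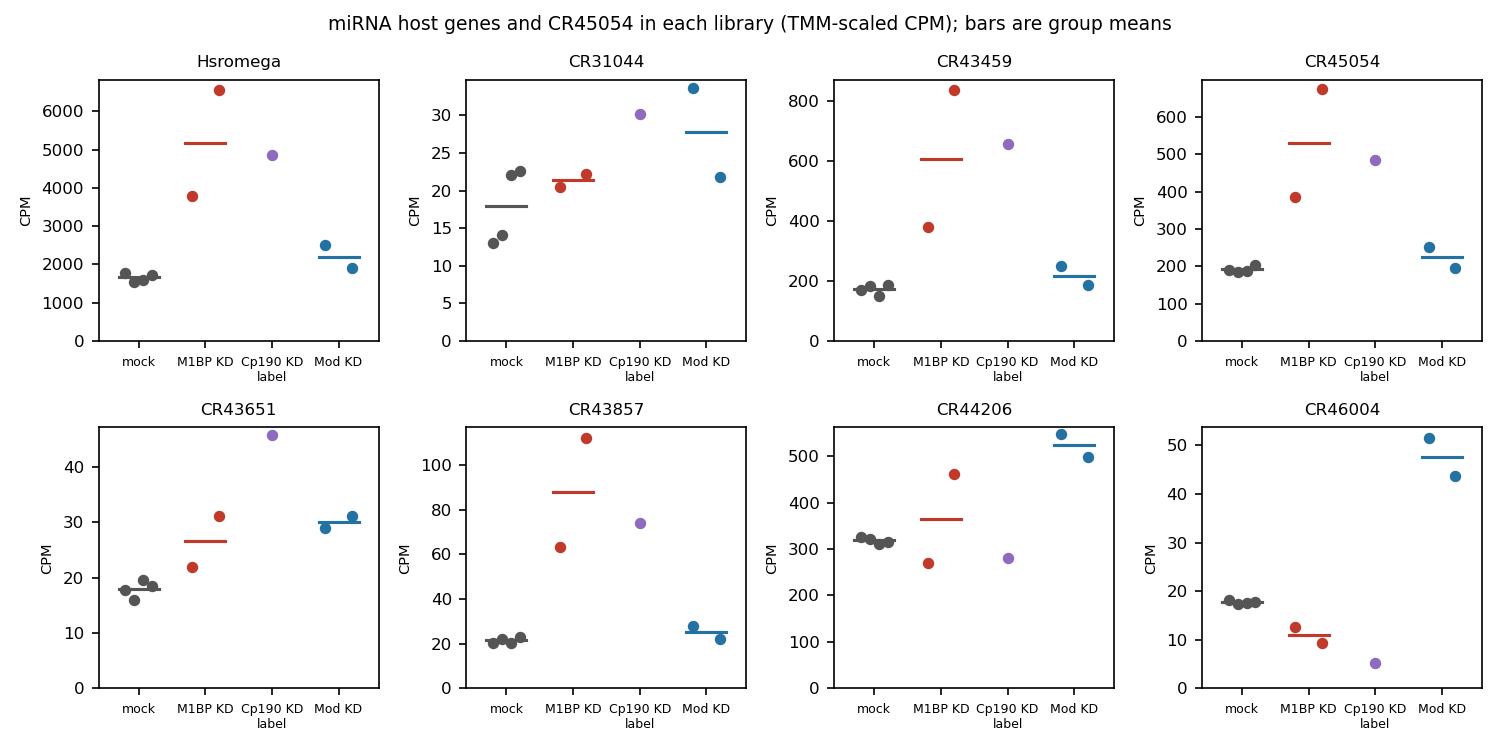
Level in each library in TMM-scaled CPM (linear axes from 0) for the 7 noncoding genes that hold a miRNA gene and for *CR45054* beside the *mir-277* and *mir-34* host; each point is a library and each bar the mean of a group. *CR43459*, *CR45054* and *CR43857* are highest in the *M1BP* knockdown libraries and the library labelled *Cp190* knockdown, while *CR44206* and *CR46004* are highest after *mod(mdg4)* knockdown.

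After *mod(mdg4)* knockdown, 4 of the 117 genes rose and 0 fell in edgeR's test, while 32 (27.4%) had an unadjusted p below 0.05, against 20.6% of all genes tested and 19.5% of those with at least 5 CPM in mock. Over all 9066 genes tested, 0.320% rose and 0.408% fell, and over those with at least 5 CPM in mock 0.414% and 0.506%. Besides *CR46004* and *CR44206* (log2 fold change 0.74 ± 0.11, adjusted p = 0.0343), these were *asRNA:CR45137* and *CR44999*. *asRNA:CR45137* was at 44.0 and 48.5 CPM, above its mock range of 17.8 to 20.2 CPM, a log2 fold change of 1.28 ± 0.14 (adjusted p = 0.0225). *CR44999* (chrX:3373159-3522787, plus strand), a gene of 149629 bp that spans *Myc* and other genes of its strand, was at 196 to 237 CPM in mock and at 367 and 391 CPM, a log2 fold change of 0.87 ± 0.12 (adjusted p = 0.033). It was at 243 and 369 CPM after *M1BP* knockdown.

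The calls after *mod(mdg4)* knockdown were fragile. Leaving out any single mock library removed all 4 (adjusted p between 0.0776 and 0.153), although the log2 fold changes stayed between 0.72 and 1.46. Those fits called 0 genes higher and 0 to 2 lower over all genes tested, so the loss was not particular to the noncoding genes. Without *mod(mdg4)* knockdown replicate 1 or 2 the median log2 fold change of the 117 genes was 0.15 or 0.16, against -0.04 over all genes tested in each. DESeq2 called 15 of the 117 higher and 1 lower, and 369 higher and 549 lower over all 9066 genes tested.

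The *M1BP* and *mod(mdg4)* knockdown libraries were also compared with each other, since that contrast uses none of the mock libraries by which the genes were chosen. In this comparison 14 of the 117 genes were higher and 7 lower after *M1BP* knockdown, which is 12.0% and 5.98%. Over all 8757 genes tested 4.84% were higher and 1.68% lower, and over genes with at least 5 CPM in mock 4.89% and 2.21%. The median log2 fold change of the noncoding genes was -0.15, against -0.02 for all genes tested and -0.11 for those with at least 5 CPM in mock. Both *M1BP* knockdown libraries lay above both others in 34 of the 117 genes and below both in 41, the 21 called among them, and over all genes tested in 25.0% and 28.1%. Without *M1BP* knockdown replicate 3, 7 were higher and 5 lower.

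The genes higher after *M1BP* than after *mod(mdg4)* knockdown were led by *CR43415*, which was at 8.96 and 8.72 CPM after *mod(mdg4)* knockdown, a log2 fold change of 3.67 ± 0.45 (adjusted p = 0.000244). *asRNA:CR45281* followed, with 10.8 and 9.77 CPM after *mod(mdg4)* knockdown and a log2 fold change of 3.33 ± 0.34 (adjusted p = 6.73e-05). *CR45280* (chr2R:7254602-7256696, plus strand) was at 5.29 to 6.39 CPM in mock, 28.7 and 45.5 CPM after *M1BP* knockdown and 3.94 and 5.70 CPM after *mod(mdg4)* knockdown. Its log2 fold change between the knockdowns was 2.98 ± 0.44 (adjusted p = 0.00103). *CR44949* (16.8 and 24.7 CPM after *mod(mdg4)* knockdown) differed by 2.77 ± 0.45 (adjusted p = 0.002) and *CR44453* (21.1 and 23.8 CPM) by 2.48 ± 0.32 (adjusted p = 0.000345).

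The heat-inducible genes and 3 of the 7 miRNA hosts (*CR43857*, *CR43459* and *Hsromega*) were among the others that were higher, while the host *CR46004* was lower and the other 3 were not called. The *alphagamma-element:CR32865* was at 13.7 and 26.0 CPM after *mod(mdg4)* knockdown and differed by 2.01 ± 0.37 (log2, adjusted p = 0.00442). *CR43857* differed by 1.85 ± 0.33 (adjusted p = 0.00419). *CR43459* differed by 1.51 ± 0.35 (adjusted p = 0.0181), *CR45054* by 1.28 ± 0.31 (adjusted p = 0.0235) and *Hsromega* by 1.27 ± 0.35 (adjusted p = 0.0439). Without *M1BP* knockdown replicate 3 the adjusted p was 0.0568 for *CR43857*, 0.228 for *CR43459*, 0.243 for *CR45054* and 0.383 for *Hsromega*. Without *mod(mdg4)* knockdown replicate 2 it was 0.0597 for *CR45054* and 0.0811 for *Hsromega*.

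The genes lower after *M1BP* than after *mod(mdg4)* knockdown were led by *Irar*, at 94.6 and 57.9 CPM after *mod(mdg4)* knockdown against 18.3 and 11.7 CPM after *M1BP* knockdown. Its log2 fold change was -2.31 ± 0.35 (adjusted p = 0.00123), and the mock libraries lay between the knockdowns. *CR46004* had a log2 fold change of -2.08 ± 0.36 (adjusted p = 0.0031). *CR43264*, at 252 and 384 CPM after *mod(mdg4)* knockdown, had -1.99 ± 0.29 (adjusted p = 0.000769). These 3 genes stayed below the threshold when any single library was left out, a fit in which the lone library is assumed to vary like the other group.

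*CR44417*, in an intron of *Mapmodulin* on the other strand, was at 31.0 and 25.9 CPM after *mod(mdg4)* knockdown and at 10.6 and 6.96 CPM after *M1BP* knockdown (log2 fold change -1.66 ± 0.42, adjusted p = 0.03). *CR32368* was at 31.0 and 37.4 CPM and at 12.0 and 9.55 CPM (-1.63 ± 0.38, adjusted p = 0.0206). Without *M1BP* knockdown replicate 3 their adjusted p-values were 0.16 and 0.105, and without *mod(mdg4)* knockdown replicate 1 that of *CR44417* was 0.0641. *CR42862* and the variable *CR40469* made up the 7. The adjusted p of *CR42862* was 0.0925 without *M1BP* knockdown replicate 3, and that of *CR40469* was 0.233 without it and 0.101 without *mod(mdg4)* knockdown replicate 2.

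**Figure D4:**
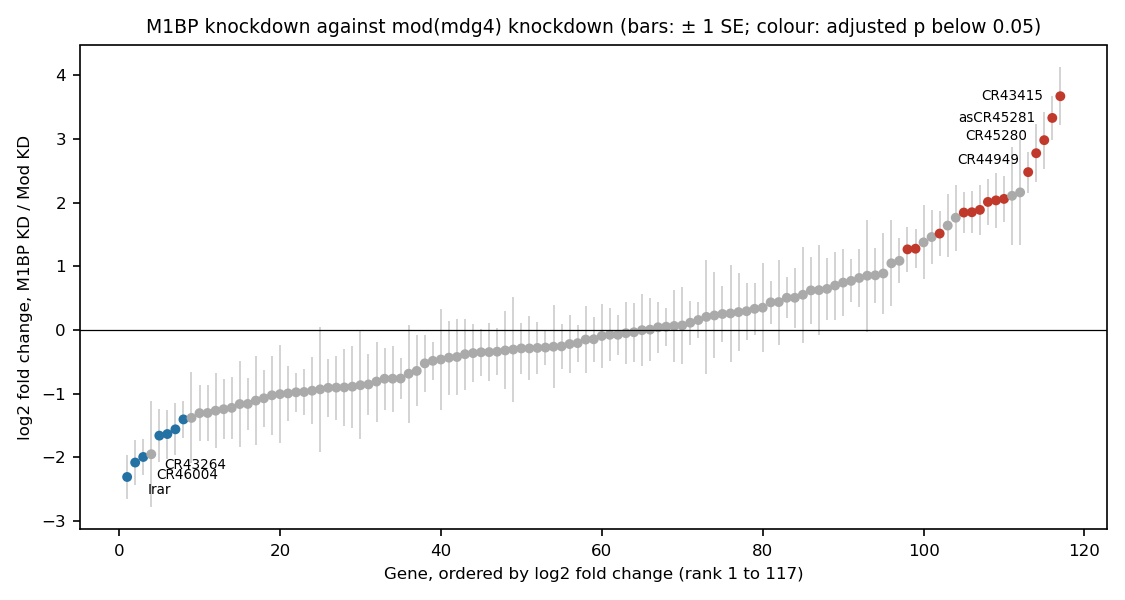
Log2 fold change of *M1BP* over *mod(mdg4)* knockdown (2 libraries each) for the 117 noncoding RNA genes in rank order, with bars of 1 SE; red and blue mark the 14 genes higher and the 7 lower at an adjusted p below 0.05. *CR43415* stands at the upper end with 3.67 and *Irar* at the lower end with -2.31.

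Of the libraries used, a single one carried the *Cp190* knockdown label, so its values have no test. In it 50 of the 117 genes lay above the range of the 4 mock libraries and 52 below, which is 42.7% and 44.4%. Over all genes with at least 5 CPM in mock, 24.8% lay above and 53.8% below, and over the 9511 genes tested above 33.5% and 48.7%. The 3 largest rises were in *CR43415* (96.0 CPM), *CR44453* (133 CPM) and *asRNA:CR45281* (81.5 CPM), each above its mock range given earlier. Of the genes that rose after *M1BP* knockdown, *Hsromega* was at 4850 CPM here, *CR43459* at 657 CPM and *CR43857* at 74.0 CPM, also above the mock range.

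The largest fall among genes with at least 3 counts was that of *asRNA:CR44029* on chromosome 4, opposite *unc-13*, which encodes a protein of synaptic vesicle priming. It had 6 counts (0.628 CPM) against 14.3 to 20.2 CPM in mock, a log2 ratio of -4.80. *CR45595* (3.14 CPM, mock 10.6 to 19.0 CPM) and *asRNA:CR44169* (4.61 CPM, mock 18.3 to 19.4 CPM) followed. A further 9 genes had 0 counts, among them *asRNA:CR43906*, which was at 10.2 to 11.9 CPM in mock and so at least 35.2-fold lower against the floor of 3 counts in that library, and *CR44904*, at least 27.0-fold lower. In these libraries fewer cells with a transcript and fewer transcripts per cell cannot be told apart.

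Of the 117 genes, 66 overlap a gene on the other strand, 19 overlap one on the same strand and 41 overlap neither. After *M1BP* knockdown 11 of the 66 rose and 14 fell, and 10 of the 41 without overlap rose and 2 fell. Over all genes tested with at least 5 CPM in mock, 9.51% rose and 15.2% fell among those that overlap an other-strand gene, and 7.33% and 14.9% among those that overlap neither. The difference between these classes was not tested. Of the 14 whose longest other-strand overlap was wholly intronic, 3 rose and 6 fell, the latter including *Irar*, *CR43264* and *CR44417*. The share over all genes was not counted for this class. Of the 11 genes that rose opposite a partner, the partner also rose in 6, as for *asRNA:CR45137* and *sca*, and did not pass the test in 5. Of the 14 that fell, the partner rose in 3, fell in 2 and did not pass the test in 9. Of these 3, *Balat* and *CG13377* had mock means of only 0.277 and 0.134 CPM. A gene that low can pass the expression filter through the knockdown libraries alone, and it then has to be higher in them. Reads assigned to the wrong strand were not checked for any pair. Opposite genes that were not called, partners moved in both directions. *Cph* opposite *CR44357* and *CG3655* opposite *CR44779* rose, and *Coop* opposite *asRNA:CR43723* and *CG9813* opposite *CR44138* fell. Over all genes tested 16.5% rose and 11.5% fell, and a difference of the partners from this was not tested. Across genes, the log2 fold change after *M1BP* knockdown of a noncoding gene and of its partner had a Pearson's r of 0.24 and a Spearman's rho of 0.09 (n = 64 pairs). With the nearest same-strand gene ending within 5 kb upstream the values were 0.51 and 0.51 (n = 43 pairs). The 2 genes of a pair come from the same libraries, and genes are not independent replicates.

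Of the 12 genes that rose and had a tested upstream neighbour, the neighbour also rose in 4 and was not called in 8. Of the 4 that fell, it fell in 1 and was not called in 3. Over all genes tested 16.5% rose and 11.5% fell, and a difference of the upstream neighbours from this was not tested. Of the 4 neighbours that rose, *Gadd45*, a stress-response gene that ends 3947 bp before *CR45280*, rose from a mean of 261 to 479 CPM (log2 fold change 0.90, adjusted p = 0.00309). *Dg*, which encodes dystroglycan and ends 2357 bp before *CR43415*, rose from 150 to 218 CPM (0.57, adjusted p = 0.0263). *CR43632*, ending 216 bp before *CR43631*, rose from 0.951 to 9.79 CPM (3.38, adjusted p = 0.00275), and *Cyp9h1*, before *CR44453*, from 0.525 to 2.67 CPM (2.37, adjusted p = 0.0252). Reads that run past the end of an upstream gene and reads of a separate transcript cannot be told apart in these counts. By chromosome, 10 of 25 genes on 3R rose and 1 fell, while on 3L 1 of 22 rose and 5 fell, and on X 7 of 27 rose and 5 fell. Over all genes tested with at least 5 CPM in mock, 8.49% rose and 14.5% fell on 3R, 8.85% and 14.5% on 3L, and 8.48% and 16.3% on X. The differences between chromosomes among the noncoding genes were not tested.

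**Figure D5:**
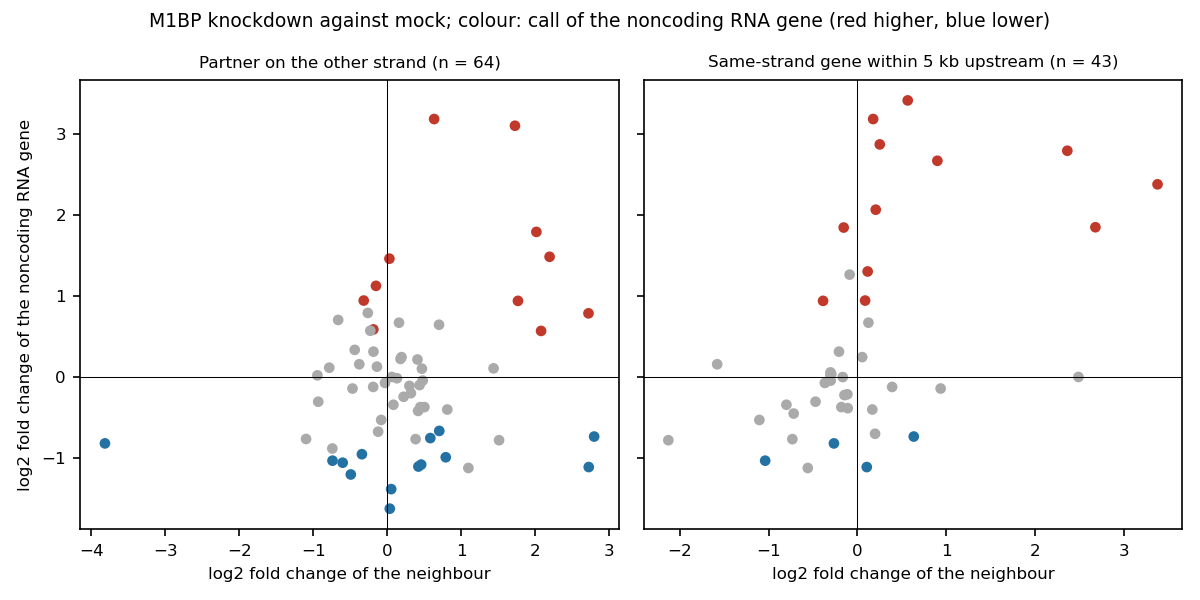
Log2 fold change after *M1BP* knockdown of noncoding RNA genes (vertical axis) against that of the partner on the other strand (left, n = 64) or of the nearest same-strand gene ending within 5 kb upstream (right, n = 43); each point is a pair and its colour the call of the noncoding gene. Pairs spread on both sides of 0 on the left, and Pearson's r is 0.24 on the left and 0.51 on the right.

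Motif 1 is the element that M1BP binds, so its listed occurrences near these genes are shown, for 5 genes. In the strongest 1999 matches of the study's list, 7 of the 117 genes had a match within 1000 bp of their start. Of these 7, 2 were higher after *M1BP* knockdown against mock, 0 were lower and 5 were not called. One of the 5, *CR32368*, was lower against *mod(mdg4)* knockdown, and the other 4 were called in neither comparison. Over all genes tested with at least 5 CPM in mock, 8.69% were higher and 14.9% lower after *M1BP* knockdown. The share of all genes with a listed match was not counted, and a difference of these genes from other genes was not tested. Capitals mark the letters equal to the core GGTCACACT of the motif at the same place of the 15-base match, and each is written 5′ to 3′ on the strand of the match.
CR43857: gaaacGGcaACACTg
CR43287: gctatGGTCACtCTa
CR32368: caaccGGTCACACTg
CR44809: gaaacGGTCACACTt
CR44809: gctaaGGTaACACTg
CR44809: gcttcaGTCAaACTg
CR44957: gatgcGcaCACACTg
The matches of *CR43857* and *CR44957* and the last 2 of *CR44809* are on the strand of the gene, and the others are on the opposite strand. *CR44809*, with 3 matches of which 1 holds the whole core, had a log2 fold change of 0.04 after *M1BP* knockdown (adjusted p = 0.944), and *CR44957* one of 0.13 (adjusted p = 0.701). *CR43287* (chrX:7707775-7708587), in an intron of *CHES-1-like*, was at 4.70 to 6.58 CPM in mock and at 9.25 and 15.6 CPM after *M1BP* knockdown, which is a log2 fold change of 1.12 ± 0.27 (adjusted p = 0.0162; 0.0859 without *M1BP* knockdown replicate 3). The list was held in part, so genes without a listed match were not counted as lacking one.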

How the data were processed

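EU-labeled RNA from Kc167 cells was sequenced as 50 bp single-end reads. Per the methods, the authors removed adapters and low-quality ends (cutadapt 2.7, quality 20, reads of at least 25 bases kept) and mapped to FlyBase r6-24 (dm6) using HISAT2 2.1.0. Sense-strand reads on gene features were counted by featureCounts 1.6.4, so reads in introns count and reads on overlapping same-strand genes or with several map positions do not. The deposited values are raw counts per gene; gene lengths are in the same table. The authors used DESeq2 1.22.1. Of 11 labelled libraries 9 were used: 2 columns carry 1 shared label (*Cp190* knockdown replicate 2) and none that of *M1BP* knockdown replicate 1, so both were left out. Groups came from the labels.

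Counts were tested in R 4.3.3 with edgeR 4.0.16 (TMM, default expression filter, quasi-likelihood F test, no block, Benjamini-Hochberg over all genes tested, adjusted p below 0.05). The SE is the log2 fold change over the square root of F. All 117 genes passed the filter in each comparison. The rule used CPM of the column total, printed CPM is TMM-scaled, and the floor of 3 counts covers counting error only. Symbols came from a name table (17651 of 17771 IDs matched), and positions from the count table, of which 115 of the 117 are the same in the annotation used for exons. The members, lists and tests were chosen with earlier results of these data known. Genes were named by level (5 highest per kb and 3 highest CPM), by having a name rather than a CR number, as the 5 largest called changes in each direction and comparison, as the 3 largest in the library labelled *Cp190* knockdown, and as the 2 nearest to 5 CPM on each side. Others, including the miRNA hosts, *CR45054*, the genes with a Motif 1 match, *CR43906* and the neighbours, were added as classes or after their values were seen. Promoter letters and miRNA sequences were not analysed here. Tests were checked on simulated counts. Alternatives were DESeq2 1.42.0, other scalings and filters, 1 model of all 9 libraries, each mock pair alone, a replicate block, an adjusted p below 0.01 and each library left out.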

Additional observations from a re-analysis of the deposited data

How the results depend on the processing

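No log2 fold change of a called gene changed sign under any alternative run. Of the 43 genes called after *M1BP* knockdown 17 passed the threshold under every alternative, of the 21 called between the knockdowns 10, and of the 4 called after *mod(mdg4)* knockdown 0. The number lower after *M1BP* knockdown fell from 17 to 4 against mock replicates 1 and 2 alone, 10 against 3 and 4 alone and 3 at an adjusted p below 0.01. The number higher was 16 against mock replicates 1 and 2 alone. Over all genes tested the number lower went from 1097 to 505, 553 and 322 in the same 3 settings. The number higher went from 1574 to 750 against mock replicates 1 and 2 alone. Leaving out 1 library gave 21 to 30 higher and 6 to 21 lower after *M1BP* knockdown, 0 to 11 higher and 0 to 5 lower after *mod(mdg4)* knockdown, and 7 to 17 higher and 5 to 9 lower between the knockdowns. For the library labelled *Cp190* knockdown it gave 50 to 53 above and 52 to 54 below the mock range. After *mod(mdg4)* knockdown 15 were higher and 1 lower with DESeq2, 2 higher with all 9 libraries in one model, and 0 higher against either mock pair or at an adjusted p below 0.01. Against either mock pair 0 of all genes tested were called, and with all 9 libraries in one model 18 were higher and 30 lower. Between the knockdowns 14 were lower with all 9 libraries in one model, and 9 were higher and 4 lower at an adjusted p below 0.01. Over all genes tested 718 were lower with that model, against 147. At the stricter threshold 218 were higher and 30 lower. The cause of these shifts was not tested. Scaling by library size only moved the median log2 fold change of all genes to -0.13 after *M1BP* knockdown, 0.12 after *mod(mdg4)* knockdown and -0.27 between them, where 253 genes were higher and 261 lower in all, against 424 and 147 with TMM, and 11 and 8 of the noncoding genes.

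Same-numbered *M1BP* knockdown and mock libraries did not deviate together (correlation -0.11 over 9511 genes, -0.04 over 9066 for *mod(mdg4)*), so the numbers were not taken as pairs. With a replicate block 19 noncoding genes were higher and 4 lower after *M1BP* knockdown, and 8 higher after *mod(mdg4)* knockdown. Over all genes tested the block gave 466 higher and 100 lower after *M1BP* knockdown, and 61 and 80 after *mod(mdg4)* knockdown. With the crossed pairing, added after seeing the data, 23 noncoding genes were higher and 9 lower after *M1BP* knockdown, and 835 and 560 over all genes tested. No block was possible between the knockdowns, which share 1 replicate number. Depth limits the low genes: 3 counts are 0.104 to 0.349 CPM on the TMM scale, depending on the library, and the highest is that of the shallowest library.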

Other observations

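Some lncRNA: and asRNA: genes below 5 CPM in mock became well transcribed after *M1BP* knockdown. *let7C*, the host of *let-7*, *mir-100* and *mir-125*, miRNAs known for timing developmental transitions, was at 1.10 to 1.49 CPM in mock and at 16.9 and 44.8 CPM after *M1BP* knockdown, which is a log2 fold change of 4.56 ± 0.36 (SE, edgeR adjusted p = 0.000112). It was at 39.6 CPM in the library labelled *Cp190* knockdown and at 0.822 and 0 CPM after *mod(mdg4)* knockdown. *asRNA:CR45129* was at 2.86 to 4.95 CPM in mock and at 54.9 and 126 CPM after *M1BP* knockdown (log2 fold change 4.43 ± 0.33). *CR43863*, just under the 5 CPM limit, was at 4.55 to 5.35 CPM in mock and at 33.1 and 74.9 CPM (3.47 ± 0.29). Of these 2269 low genes 414 passed the expression filter, and 114 were higher and 16 lower. A gene that passes only through the knockdown libraries has to be higher in them, so these counts say nothing of the low genes as a class.

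Other low host genes of miRNAs were higher too. Of 29 low genes that hold a miRNA gene, 11 were tested, and 7 were higher and 0 lower after *M1BP* knockdown. *let7C* is among the 7, and the limit just given for low genes holds for these counts. *CR43626*, which holds *mir-282*, was at 2.36 to 3.34 CPM in mock and at 9.09 and 9.74 CPM after *M1BP* knockdown (log2 fold change 1.78 ± 0.26, adjusted p = 0.00226). *CR43836*, which holds *mir-31b*, was at 0.657 to 3.19 CPM in mock and at 13.0 and 9.09 CPM (2.57 ± 0.50, adjusted p = 0.00672). *iab8*, the noncoding transcript of the bithorax complex that holds *mir-iab-8*, was at 0.380 to 0.559 CPM in mock and at 3.85 and 3.06 CPM (2.87 ± 0.44, adjusted p = 0.00248). After *mod(mdg4)* knockdown *CR43626* was at 3.61 and 2.79 CPM, *CR43836* at 1.23 and 5.12 CPM and *iab8* at 0 and 4.77 CPM. None of these was called between the knockdowns (edgeR adjusted p = 0.172, 0.157 and 0.878). *CR46006*, which holds *mir-276a* beside the host of *mir-276b*, was at 2.68 to 6.35 CPM in mock and at 8.60 and 3.62 CPM and did not pass the test. These genes were picked after their values were seen.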
